A study of Bos taurus with 20 samples.

Results

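The comparison described here is between tubular and ovoid bovine conceptuses that had received no IL6. Samples were taken where the title says control, and 1 of the 6 ovoid controls was left out because it held fewer than 1000000 counts assigned to genes. That left 9 of the 20 libraries of the series, 4 tubular and 5 ovoid. Each library was made from the total RNA of 1 whole conceptus, depleted of ribosomal RNA. The embryos came from in vitro fertilisation and were given the carrier SOF-BE1, without recombinant bovine IL6, on day 5. They stayed in those culture drops until blastocysts were collected for transfer on day 7.5. The labels give neither the age of the recovered conceptuses nor their breed or parents. The 5 ovoid conceptuses were 2 females and 3 males, and the 4 tubular ones were 1 female and 3 males. IL6 conceptuses, 6 ovoid and 4 tubular, had received IL6 at 100 ng/ml over the same days and are used only where shape differences are set side by side.

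Before a bovine conceptus attaches to the uterus, its outer layer, the trophoblast, grows lengthwise, and the conceptus passes from a sphere through ovoid and tubular forms to a long filament. The trophoblast of ruminants secretes interferon tau, the signal by which the mother recognises pregnancy, and the embryo proper forms from a small disc on the elongating sac. Ovoid and tubular conceptuses are therefore neighbouring stages of one process. A whole conceptus mixes trophoblast, endoderm and disc, so fewer cells of a type and less RNA per cell cannot be told apart. The files give gene identifiers and positions but no gene names, and 0 of 27607 identifiers matched the gene table used here. Interferon tau and the markers of trophoblast, disc, endoderm and mesoderm could for that reason not be looked up, and the labelled tissue was not checked against marker genes. Genes are described below by position, size, level and number of exons.

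The 9 libraries held 5197824 to 13940103 assigned counts. The library left out, ovoid control replicate 3, held 329666 counts over 15567 genes and had a median Spearman correlation of 0.625 with the other controls. Each title starts with a code, called the title code here, which the labels leave unexplained. Code c201 covers 3 of the ovoid controls used (replicates 1, 2 and 4), c8086 covers 2 of the tubular controls (replicates 3 and 4), and c5036 covers 2 of each shape (ovoid replicates 5 and 6, tubular replicates 1 and 2). Only within c5036 can shape and title code be told apart.

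The step from ovoid to tubular came with no gene past the threshold. Of 13950 genes tested with edgeR's quasi-likelihood test and a term for sex, 0 (0%) had a Benjamini-Hochberg adjusted p under 0.05, and the smallest adjusted p was 0.991. An unadjusted p under 0.05 was reached by 395 genes (2.83%), where 697.5 would be expected on average if no gene differed. Of these, 156 (1.12%) were higher and 239 (1.71%) lower in tubular conceptuses. Every tubular value lay above every ovoid value in 42 genes (0.301%) and below in 39 (0.280%). DESeq2 with the same design gave p under 0.05 for 519 genes (3.72%) and called 9 (0.0645%), 6 higher and 3 lower. Limma-voom with sample quality weights gave p under 0.05 for 2328 of the 13950 genes and called 1. Against the 697.5 expected, the number was thus lower or higher depending on the model. The number of genes with p under 0.05 moved with single libraries: without ovoid control replicate 5 there were 2322, and without ovoid control replicate 2 there were 198.

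Fold changes were small for most genes. The median log2 fold change, tubular minus ovoid, was -0.01, with 6657 genes (47.7%) positive and 7293 (52.3%) negative, and the middle 50% of genes lay between -0.18 and 0.13. An absolute log2 fold change over 1 was estimated for 326 genes (2.34%), of which 82 (0.588%) were higher and 244 (1.75%) lower in tubular conceptuses. The 95% interval of the difference lay wholly within 1 log2 unit of no change for 10235 genes (73.4%), and for 10079 of the 12776 genes whose mean log2 CPM (counts scaled to a library of 1000000) was 1 or more. For those genes a difference of more than 2-fold in either direction fell outside the interval. The fit had 6 residual degrees of freedom.

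As whole profiles, the shapes overlapped. Spearman correlations across genes between a tubular and an ovoid library ran from 0.933 to 0.981 with a median of 0.965 (20 pairs). Within ovoid conceptuses they ran from 0.950 to 0.976 with a median of 0.962 (10 pairs), and within tubular conceptuses from 0.937 to 0.979 with a median of 0.958 (6 pairs). For 6 of the 9 conceptuses the most similar library was one of the other shape. It was one of the same sex for 7 of 9 and one of the same title code for 5 of 9. Shapes, sexes and codes differ in how many libraries they hold, and the numbers expected by chance were not computed. Pairs of the same title code had a median correlation of 0.973 (10 pairs), and pairs of different codes 0.962 (26 pairs). The most similar partner of tubular control replicate 3, a female, was ovoid control replicate 4, also a female, at 0.981. Both libraries also had the lowest totals of the 9, 6997220 and 5197824 counts. With the other female, ovoid control replicate 5, they correlated at 0.958 and 0.950. The parts of sex and depth were not tested. Genes varied about as much within one shape as within the other, with a median SD of log2 CPM of 0.360 over tubular and 0.338 over ovoid conceptuses.

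**Figure D1:**
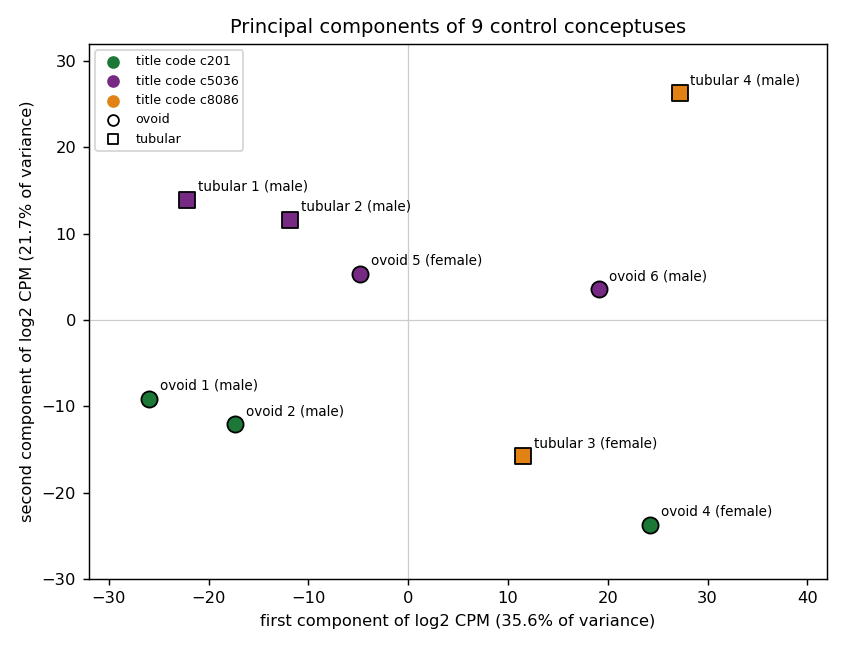
First and second principal components of log2 CPM over the 500 most variable genes, 1 point per control conceptus, with squares for tubular, circles for ovoid, and colour for the title code. The components carry 35.6% and 21.7% of the variance, and tubular and ovoid conceptuses are mixed along the first, where both shapes lie on each side of 0.

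Along the first principal component tubular conceptuses averaged 1.18 ± 22.3 (SD, n = 4) and ovoid conceptuses -0.94 ± 22.0 (SD, n = 5; two-sided exact permutation p = 0.921). Both shapes spanned nearly the whole axis, from -25.9 (ovoid replicate 1) to 27.2 (tubular replicate 4). On the second component the 2 tubular conceptuses of c5036 lay at 13.9 and 11.6, above its 2 ovoid ones at 5.34 and 3.57. The 3 of c201, all ovoid, lay between -23.7 and -9.13. The 2 conceptuses of c8086 stood far apart on it, at -15.8 and 26.3.

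No measure of library composition had an adjusted p under 0.05 between shapes. At an equal depth of 5197824 counts, 17872 ± 361 genes had a count in tubular and 18335 ± 331 in ovoid conceptuses (SD, n = 4 and 5; exact permutation p = 0.0952, adjusted over 6 measures 0.286). Within c5036 those means were 17997 and 18012. The 10 most abundant genes of each library took 7.45% ± 0.103 of the counts in tubular and 7.08% ± 0.392 in ovoid conceptuses (SD, n = 4 and 5; exact permutation p = 0.0317, adjusted p = 0.190). The lowest share, 6.40%, was that of ovoid control replicate 2, and without it the difference fell from 0.372 to 0.201 percentage points (exact permutation p = 0.0571). Depth was close in the shapes, with a mean log2 total of 23.2 in tubular and 23.1 in ovoid conceptuses (exact permutation p = 0.635).

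The 2 identifiers with a positive and the 2 with a negative fold change of smallest p, among genes whose mean log2 CPM was 1 or more, are given in full as values, since none passed edgeR's threshold. ENSBTAG00000014127 is the most abundant of them, on the minus strand of chromosome 16 from 67728006 to 67735629 in ARS-UCD1.2, with 3489 exonic bases in 10 exon blocks. It measured 282.9, 217.1, 309.8, 475.6 and 314.9 CPM in ovoid replicates 1, 2, 4, 5 and 6, and 602.5, 683.1, 669.2 and 545.8 CPM in tubular replicates 1 to 4. The groups do not overlap, and the highest ovoid value is that of a c5036 conceptus. The means were 625.1 ± 63.5 CPM in tubular (SD, n = 4) and 320.1 ± 95.3 CPM in ovoid conceptuses (SD, n = 5). The log2 fold change was 1.05 ± 0.18 (SE, edgeR adjusted p = 0.991). DESeq2 gave 1.05 with an adjusted p = 1.62e-04, and limma-voom with quality weights gave 1.24 with an adjusted p = 0.0393. Separate edgeR fits gave log2 fold changes of 0.70 within c5036 and 1.17 between c8086 and c201. Those fits reuse the libraries from which the gene was picked, and groups without overlap set their direction in advance. Among IL6 conceptuses the gene ran from 16.5 to 378.4 CPM in 6 ovoid and from 72.5 to 1169 CPM in 4 tubular libraries. The fitted IL6 shape difference was 1.64 ± 0.85 (SE), with groups that overlap widely.

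ENSBTAG00000054016 has a single exon of 141 bases on the minus strand of chromosome 17, from 62623977 to 62624117, and overlaps 1 other annotated gene. Overlap was judged by whole gene spans, and whether exons of the pair overlap was not computed. Counting ignored strand, so where exons overlap the strand does not separate their reads. It measured 18.8, 14.95, 17.9, 14.4 and 17.5 CPM in the ovoid conceptuses and 27.99, 29.3, 33.5 and 25.6 CPM in the tubular ones. All tubular values lie above all ovoid values, and the spread within each shape is narrow. The log2 fold change was 0.81 ± 0.15 (SE, edgeR adjusted p = 0.991, DESeq2 adjusted p = 4.77e-03). Separate edgeR fits gave 0.84 within c5036 and 0.78 between c8086 and c201. Here too the direction of both fits was set in advance by groups without overlap. In IL6 conceptuses the shapes overlapped, with 17.7 to 43.6 CPM in ovoid and 19.9 to 50.8 CPM in tubular libraries. Ovoid IL6 conceptuses thus reached values above every tubular control, though CPM of the IL6 and control libraries were scaled over different sets of libraries.

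ENSBTAG00000049112 lies on the plus strand of chromosome 19 from 41172250 to 41173174, with 891 exonic bases in 2 blocks and no overlapping gene. It measured 15.0, 18.7, 19.3, 11.8 and 27.1 CPM in ovoid and 7.80, 9.45, 3.40 and 7.66 CPM in tubular conceptuses. Every tubular value is below every ovoid value. The log2 fold change was -1.52 ± 0.28 (SE, edgeR adjusted p = 0.991, DESeq2 adjusted p = 1.44e-03). Separate edgeR fits gave -1.17 within c5036 and -1.66 between c8086 and c201, again with a direction set in advance. In IL6 conceptuses the fitted difference was -0.27 ± 0.74 (SE), over values from 2.07 to 32.8 CPM in ovoid and 4.94 to 28.8 CPM in tubular libraries.

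ENSBTAG00000037795 spans 16125969 to 16208881 on the plus strand of chromosome 26, in 12 exon blocks, and overlaps 1 other gene. Ovoid conceptuses measured 15.8, 6.45, 0.199, 2.20 and 3.44 CPM and tubular ones 0.845, 0.338, 0.295 and 0.461 CPM. The groups overlap, because ovoid control replicate 4 had the lowest value of all 9, and the tubular libraries held 2 to 9 counts each. The log2 fold change was -3.65 ± 0.75 (SE, edgeR adjusted p = 0.991; DESeq2 adjusted p = 5.38e-03). The gene passed the filter on low counts only through the ovoid conceptuses, so this size and these p-values are in part set by the filter. All 10 IL6 conceptuses were low for this gene, at 0 to 1.81 CPM, with means of 1.17 CPM in tubular and 0.571 CPM in ovoid. The shape difference of IL6 minus that of control conceptuses was 3.97 ± 1.21 on the log2 scale (SE, edgeR adjusted p = 0.9998). It contains the control difference for which the gene was picked, so its size is in part set by that choice. The IL6 libraries held 0 to 20 counts of the gene.

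**Figure D2:**
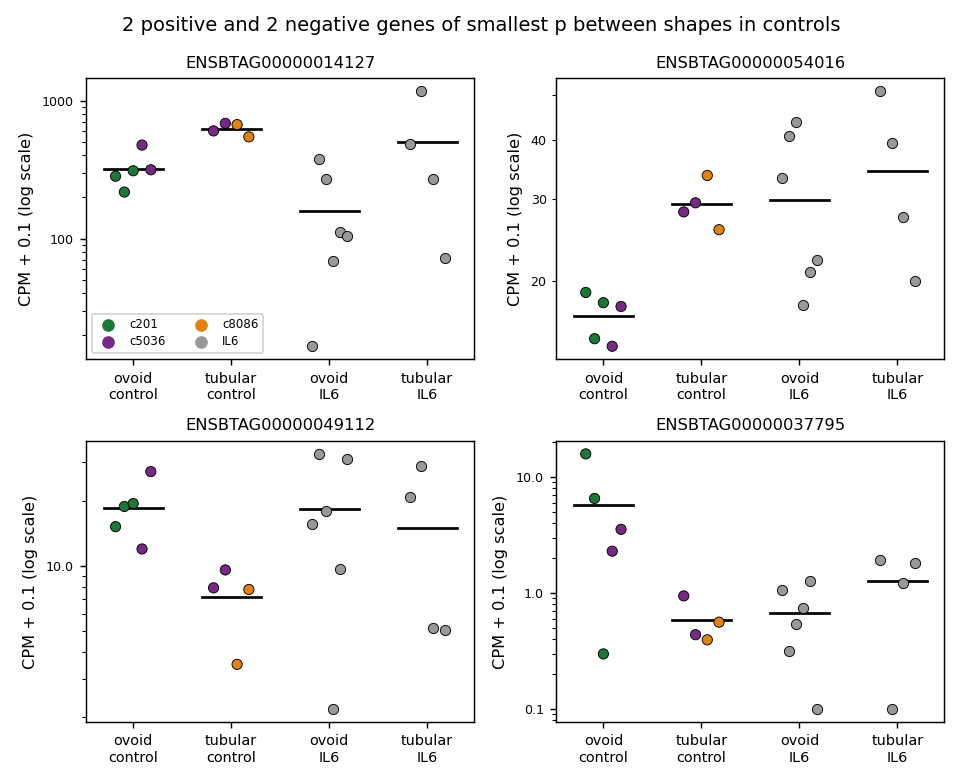
CPM plus 0.1 on a log axis of the 2 identifiers with a positive and the 2 with a negative fold change of smallest p between shapes, 1 point per conceptus, with bars at the group means; control points are coloured by title code and IL6 points are grey. In controls the shapes do not overlap for ENSBTAG00000014127, ENSBTAG00000054016 and ENSBTAG00000049112, whereas in IL6 conceptuses they overlap for all 4. Control and IL6 CPM were scaled over different sets of libraries.

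The 9 genes that DESeq2 called include those 4. Of the 9, 6 had groups that do not overlap, against 0.581% of all genes, but the calls were made from the same values. Single-exon genes of at most 300 bases made up 5 of the 9, against 406 of the 13950 genes tested. Another annotated gene was overlapped by 5 of the 9, and the share of all tested genes that do so was not computed. Their unadjusted p in edgeR ran from 1.79e-04 to 8.86e-04.

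Grouped by chromosome, tested genes were balanced between shapes on most autosomes. Median log2 fold changes over the 28 autosomes other than chromosome 13 ran from -0.06 (chromosome 9) to 0.03 (chromosome 21), with 40.4% to 59.1% of genes higher in tubular conceptuses. On chromosome 13, 350 of 522 tested genes (67.0%) were higher and the median was 0.11. None of the 522 had groups without overlap, against 0.581% of all genes, and 14 (2.68%) had p under 0.05, against 2.83%.

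The chromosome 13 difference came from 1 conceptus. In tubular control replicate 4, a male of c8086, the 474 genes of chromosome 13 whose mean log2 CPM was 1 or more had a median deviation of 0.53 log2 units from each gene's median over the other 8 controls, a level 1.44 times theirs. Deviations are given relative to the median over the autosomal genes of the same library. The middle 50% of these genes deviated by 0.25 to 0.75, and 87.8% lay above the autosomal median of that library. For 277 of the 474 (58.4%) this library held the highest value of all 9, against 14.5% of 12302 genes elsewhere. The other 8 controls had chromosome 13 medians of -0.09 to -0.01, and the 10 IL6 conceptuses of -0.10 to 0.01. Among the other 260 pairs of an autosome and a control library, the largest absolute median was 0.26. Chromosome 13 took 4.76% of the counts of that library, against 3.19% to 3.73% in the other controls.

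The elevation ran along the whole chromosome. In 10 bins of 47 or 48 genes in order of position, medians in tubular control replicate 4 were 0.34 to 0.63, with the lower values in the first 3 bins and 0.53 or more in every later one. The highest value of a bin in any other control was 0.16. Without that conceptus the chromosome 13 median between shapes was -0.01, and within c5036, which does not hold it, the shift was absent from both tubular libraries (-0.01 and -0.02). DNA was not measured, and the number of copies of the chromosome was not tested.

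**Figure D3:**
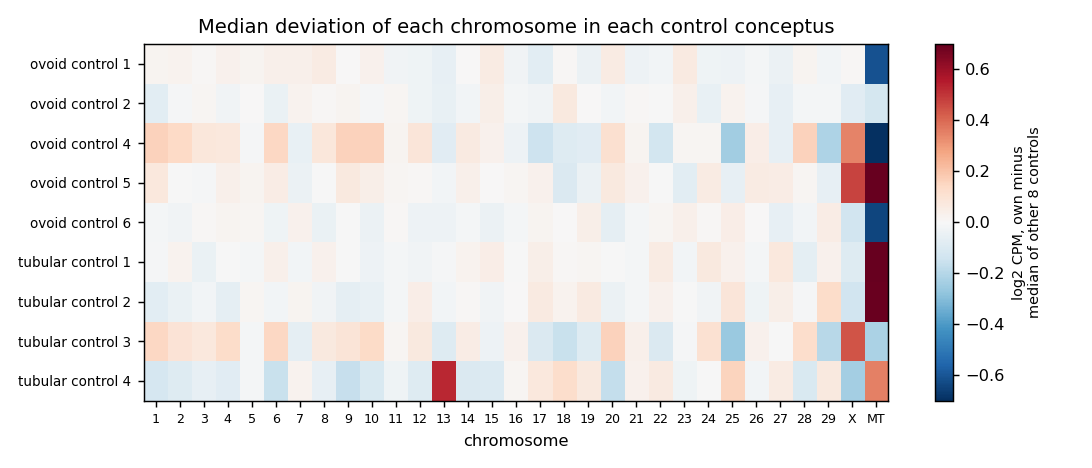
Median deviation of the genes of each chromosome, in log2 CPM, in each of the 9 control conceptuses from the median of the other 8, as colour from blue (lower) to red (higher) with colours saturating at 0.7. Chromosome 13 in tubular control 4 (0.53) stands out among the autosomes, X is higher in the 3 females, and mitochondrial genes (MT) vary from conceptus to conceptus.

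**Figure D4:**
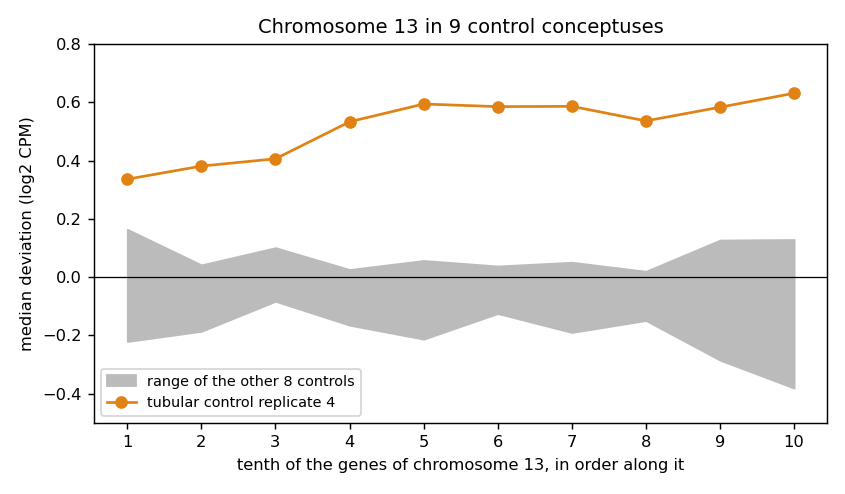
Median deviation in log2 CPM of 10 bins of genes ordered along chromosome 13, for tubular control replicate 4 (line) and the range of the other 8 controls (grey). The line stays between 0.34 and 0.63, above the grey range in every bin.

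Genes of the X chromosome were higher in the females of either shape. Their median deviations were 0.35 to 0.47 in the 3 females and -0.24 to 0.01 in the 6 males. With the term for sex in the fit, 198 of 476 X genes were higher in tubular conceptuses and the median was -0.06. The fit of c5036 alone, where both tubular conceptuses were male and 1 ovoid conceptus was female, had no sex term and gave -0.31.

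Most mitochondrial genes had a positive fold change, but the shapes overlapped. These genes encode subunits of the respiratory chain and the ribosomal and transfer RNAs of the organelle. Of 37 mitochondrial genes in the files 26 were tested, 21 had a positive log2 fold change, and the median was 0.47 against -0.01 over all genes tested. All 15 with at least 200 exonic bases were positive, with a median of 0.49. An unadjusted p under 0.05 was reached by 3 of the 26 (11.5%, against 2.83% of all genes). Library medians of 22 mitochondrial genes were -0.61, -0.12, -0.85, 0.71 and -0.64 in ovoid replicates 1, 2, 4, 5 and 6, and 0.85, 0.69, -0.22 and 0.36 in tubular replicates 1 to 4. Ovoid replicate 5 was as high as the tubular libraries of its title code, and tubular replicate 3 was lower than ovoid replicate 2.

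As a share of all counts, mitochondrial genes took 2.25% ± 0.473 in tubular (SD, n = 4) and 1.73% ± 0.563 in ovoid conceptuses (SD, n = 5; exact permutation p = 0.175, adjusted p = 0.349). Within c5036 the means were 2.62% and 2.05%. These genes are transcribed as long joint transcripts and share each library's RNA, so they are not independent of one another. In IL6 conceptuses, 23 of 25 mitochondrial genes were higher in tubular than in ovoid libraries, against 6398 of all 13247 genes, with a median of 0.45. The sign was that of the controls in 21 of the 25 (84.0%, against 67.0% of all genes). An unadjusted edgeR p under 0.05 in IL6 conceptuses was reached by 1 of the 25.

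Genes made of 1 short exon are described next. Of 3950 genes with 1 exon of at most 300 bases in the files, 406 passed the filter on low counts. Among those 406, 30 (7.39%) had p under 0.05, against 2.83% of all genes tested, and 26 of the 30 were higher in tubular conceptuses. The whole tubular group lay above the ovoid group in 16 and below it in 2, together 4.43% against 0.581% of all genes, and 0 passed the adjusted threshold in edgeR. The values moved with the length limit. With a limit of 200 bases, 24 of 310 had p under 0.05, 20 of them higher, and with a limit of 500 bases 35 of 556, 26 of them higher. The median log2 fold change was 0.13 up to 200 bases, 0.04 up to 300 and -0.07 up to 500. The summed share of counts was 0.218% ± 0.0082 in tubular and 0.202% ± 0.0119 in ovoid conceptuses for genes up to 200 bases (SD, n = 4 and 5; exact permutation p = 0.0476, adjusted over the 3 limits 0.143). For genes up to 300 bases it was 0.878% ± 0.088 in tubular and 0.994% ± 0.207 in ovoid conceptuses (SD, n = 4 and 5; exact permutation p = 0.365). Of the 406 genes 234 overlapped another annotated gene, and 11 of the 26 higher ones were among these. The files give no gene type, so the kinds of small RNA among them are not known.

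Single-exon genes over 300 bases had a share with p under 0.05 near that of all genes, 2.65% of 718 against 2.83%, with 1 higher and 18 lower and a median of -0.09. Their part in the summed share of counts in all single-exon genes, 7.47% ± 0.498 in tubular and 7.23% ± 0.217 in ovoid conceptuses (SD, n = 4 and 5; exact permutation p = 0.302), was not tested.

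By level, large negative fold changes lay mostly among weakly expressed genes. Of the 244 genes with a log2 fold change under -1, 188 were in the lowest of 4 equal groups of genes by level. In that group 131 of 3493 genes (3.75%, against 2.83% of all genes) had p under 0.05, 27 higher and 104 lower, with a median log2 fold change of -0.12. The filter on low counts asked for enough counts in as many libraries as the smaller, tubular group holds. Weak genes high only in the larger ovoid group could therefore pass it more readily than those high only in the tubular group. These counts are in part set by the filter, and the size of that part was not tested. The 2 upper groups had medians of 0.01 and 0.02, with 33 higher and 44 lower in one and 53 higher and 45 lower in the highest. The library medians of the lowest group ran from -0.12 in tubular replicate 3 to 0.09 in ovoid replicate 1. The 3 libraries of c201 were at 0.09, 0.09 and -0.03, and the last, ovoid replicate 4, is the shallowest of the 9 and had 59 genes of the group at 0. Within c5036, ovoid replicates 5 and 6 were at 0.0 and -0.03 and tubular replicates 1 and 2 at 0.05 and 0.0. The lower level in tubular conceptuses was thus not seen within that code.

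How far the shape difference recurs can be read from conceptuses that share no library. Within c5036, the difference of 2 tubular and 2 ovoid conceptuses was set beside that of the 2 c8086 tubular and 3 c201 ovoid conceptuses. Over 12776 genes the log2 CPM differences had a Pearson r of -0.233 and a Spearman rho of -0.135, with 46.7% of genes of the same sign. Genes over 2-fold apart numbered 478 in c5036, 357 of them higher in tubular, and 677 in c8086 against c201, of which 558 were lower in tubular. Both sets held 172 genes, and in 37 of them, 7.74% of the first set and 5.47% of the second, the direction was the same. The pairs differ in title code, sex and depth as well as in which conceptuses they hold, and the part of each was not tested. Genes are not independent replicates, and no p is given.

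Against IL6 conceptuses the relation was positive. Over 12651 genes, the shape differences of the 9 controls and of the 10 IL6 libraries had a Pearson r of 0.401 and a Spearman rho of 0.509, with 71.3% of genes of the same sign. With the term for sex in both fits these were 0.334, 0.435 and 67.4%, and without chromosomes 13 and X and the mitochondrial genes 0.328, 0.434 and 67.5%. The relation differed between the 2 sets of controls. It was 0.417 and 0.507 for c8086 against c201, and -0.0282 and 0.0682 for c5036.

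Among the 156 genes with p under 0.05 and higher in tubular controls, 151 were also tested in IL6 conceptuses and 120 (79.5%) were higher there. Of the 239 lower ones, 214 were tested and 157 (73.4%) were lower. The same share over all 13247 genes tested in both was 67.0%. Sizes were smaller, with medians of 0.24 and -0.28 in IL6 conceptuses against 0.45 and -0.81 in controls, where the genes had been picked for their p. Within IL6 conceptuses, 0 of 13486 genes (0%) passed the adjusted threshold in edgeR and 327 (2.42%) had p under 0.05. The difference of the shape effect between IL6 and control conceptuses was itself tested over 14738 genes, of which 0 (0%) passed the adjusted threshold in edgeR and 106 (0.719%) had p under 0.05.

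**Figure D5:**
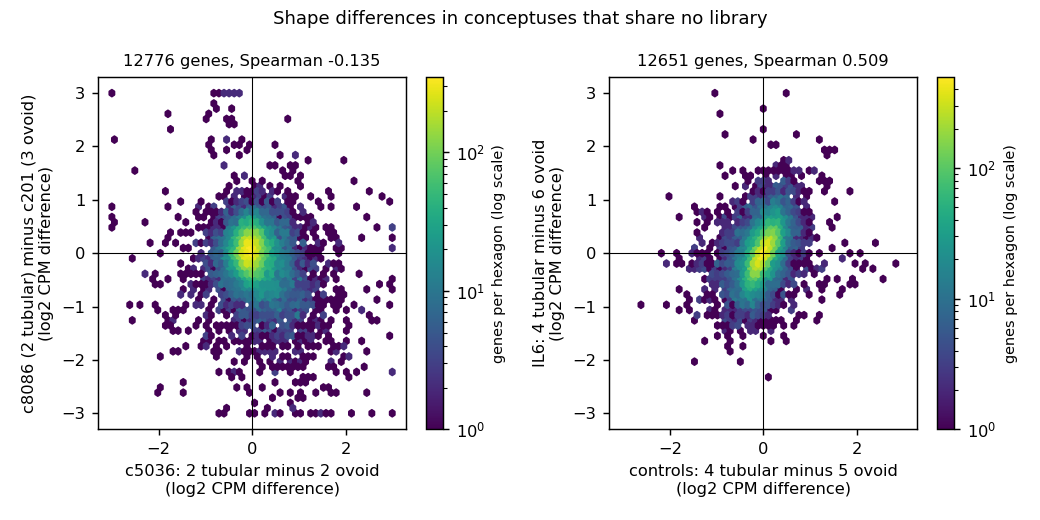
Shape differences in log2 CPM, tubular minus ovoid, of each gene whose mean log2 CPM was 1 or more, with c8086 minus c201 against c5036 on the left and IL6 against control conceptuses on the right; colour counts genes per hexagon on a log scale and values beyond 3 are drawn at 3. The cloud on the left leans slightly downward (Spearman -0.135) and the one on the right upward (0.509).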

How the data were processed

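RNA was measured in 20 bovine conceptuses, and the 10 controls are the subject here. The authors deposited raw counts per gene, 1 table per library, made with featureCounts 2.0.1 over exons of Ensembl release 105 on ARS-UCD1.2, without strand and from alignments with duplicates removed, per the file headers. The submitters' processing notes also name HISAT2, SAMtools and Picard, with no version or setting in the sources used here. Reads were paired and 150 bases long, per the labels' protocols.

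Groups, sex and title codes came from the labels. The conceptuses and gene groups were chosen with earlier results of these data known. No gene list by name could be used, so genes were grouped by chromosome, exon number, length and level. The identifiers named are the 2 with a positive and the 2 with a negative fold change of smallest p and a mean log2 CPM of at least 1.

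Ovoid control replicate 3 was left out for its depth. Genes were kept with edgeR's default expression filter, and a quasi-likelihood model with robust dispersions, TMM factors, shape and sex was fitted (edgeR 4.0.16, R 4.3.3). The SE of a log2 fold change was derived from its F statistic. CPM use TMM factors, and log2 CPM a prior count of 2. For single values per library, two-sided exact permutation tests (SciPy 1.17.1) were used, whose smallest p here is 0.0159, with adjustment over 6 measures. Each library is a separate conceptus, and conceptuses of one title code may be alike. Differences over library sets are differences of mean log2 CPM with no sex term. For the named identifiers, those within c5036 and between c8086 and c201 are log2 fold changes of separate edgeR fits with no sex term. The fit was tested on simulated counts. Alternatives used DESeq2 1.42.0, limma 3.58.1, RLE factors, other filters, other sets of libraries, no sex term and the title code as a term. The alternatives without chromosome 13 and with other lengths of short genes were added after the data were seen.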

Additional observations from a re-analysis of the deposited data

Results flagged for a closer look

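Over the control groups, 28 sets of values were checked for a library standing apart from the rest of its shape, and 2 were found. Chance alone gives about 1 in 20 for sets chosen without regard to the values. Chromosome 13, the only autosome checked, was chosen with results of these data known, and the 4 named identifiers were picked for their p. That rate does not hold for those sets. The median deviation of chromosome 13 in tubular control replicate 4 was 0.53, where the next tubular control was at -0.01. In ovoid control replicate 2 the 10 most abundant genes took 6.40% of the counts, where the next ovoid control was at 7.16%.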

How the results depend on the processing

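Of 292 recomputed values, 244 kept their direction and their side of the threshold or stayed within the spread, 5 newly passed a threshold and 8 no longer passed. Those 8 were all of the share of the 10 most abundant genes, by unadjusted exact permutation p (adjusted p in the main comparison 0.190). Another 8 were counted as changed in sign (5 of them first components), and 27 moved. Group medians and values of c5036 alone were judged by the spread only, so sign changes among them are not in that count. The chromosome 13 median changed sign with the title code as a fixed term (-0.11) and without tubular control replicate 4 (-0.01). The fold changes of the 4 named identifiers kept their sign under every alternative that could be computed. They were picked for their p in these same libraries, so a kept sign is no separate support. ENSBTAG00000037795 did not pass the filter without some ovoid conceptuses. Genes past the adjusted threshold numbered 9 with DESeq2, 1 with limma-voom and quality weights, and 0 in each edgeR alternative, each conceptus left out included. The 395 genes with p under 0.05 became 2328 with limma-voom, 643 with no filter, 122 with the shallow library kept, 155 in the fit of 19 libraries, 244 in that of 20, 136 with the title code as a fixed term (33 of the 395 among them), 707 in c5036 alone and 598 in c8086 against c201. Leaving out single conceptuses gave 198 to 2322: 245, 198, 240, 2322 and 648 without ovoid replicates 1, 2, 4, 5 and 6, and 793 and 258 without tubular replicates 3 and 4.

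The chromosome 13 median was -0.11 with the title code as a fixed term and 0.29 in c8086 against c201, and -0.01 to 0.22 with conceptuses left out. The median of short single-exon genes was 0.084 with the fixed term and 0.003 to 0.122 with conceptuses left out, and that of mitochondrial genes 0.32 to 0.76. With the shallow library kept, the differences in the 10-gene share (-0.189) and the single-exon share (-0.614) changed sign. First components derived anew, oriented to match the reported one, are other axes, so their sign is no reversal of a shape effect. They gave -18.3 over all genes and -26.5 with the shallow library kept, where the axis separates that library (138.6) from the others (-18.7 to -9.61). On the reported axis c5036 gave -24.1, and there the equal-depth gene number differed by -15.5 and the single-exon share by 0.753. The share of the 100 most abundant genes differed by 0.375 (exact permutation p = 0.524). With conceptuses left out the differences were -0.0322 to 0.327 (log2 total), -608.3 to -334.7 (genes), 0.361 to 0.763 (mitochondrial), 0.201 to 0.449 (10 genes), 0.103 to 0.470 (single-exon) and -10.4 to 13.6 (component). The causes were not tested. Genes with few counts have wide intervals at this depth, and intervals cover the spread between these conceptuses only.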

Other observations

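In tubular IL6 replicate 2 the 283 genes of chromosome 9 had a median deviation of 0.36 log2 units from the controls, where the 9 controls lay between -0.16 and 0.16 and the other IL6 conceptuses between -0.02 and 0.23. Bins along chromosome 9 were not computed.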
